A study of Mus musculus with 3 samples.

Results

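The genes described here carry out DNA replication and supply its nucleotides. They were followed in bone marrow cells labelled LT-HSCs (long-term haematopoietic stem cells), the cells from which all blood lineages are renewed. The genes number 56, out of 23185 named on the array, and were chosen by symbol for their known roles. The choice was made with earlier results of these data known. Each has 1 probe set. The cells came from female C57Bl/6 mice aged 8 to 10 weeks in 3 groups: 8 Gy total body irradiation (TBI) as FLASH, 8 Gy TBI at CDR, and no irradiation. FLASH is dose delivery at an ultra-high rate, and CDR is read here as conventional dose rate, which the labels do not spell out. RNA from 10000 LT-HSCs per group, isolated 15 days after TBI, was hybridised to Affymetrix arrays. Each group had 1 array, so no value has a replicate check, no test was possible, and "higher" and "lower" describe these arrays only.

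A cell copies its genome in ordered steps. The origin recognition complex (ORC) marks start sites, and CDC6 and CDT1 load the ring-shaped MCM helicase there during G1. The kinase CDC7 with its partner DBF4 acts on the loaded helicase, which CDC45 and the GINS complex then join to make it active. Polymerases, a sliding clamp and a flap nuclease then build the new strands from deoxynucleotides, for which ribonucleotide reductase is the limiting enzyme. Most adult LT-HSCs are quiescent and enter this programme when they are called on to divide, for example after loss of blood cells. Many of its genes are transcribed under E2F factors, which are released when the retinoblastoma protein is inactivated late in G1.

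Values are log2 levels as deposited, and a difference is the log2 level on the first named array minus that on the second. All 56 members read above the detection level of each array, which is the 95th percentile of the values of 1364 chemosensory receptor genes (olfactory, vomeronasal, trace amine) presumed silent in marrow. That level was 4.22 on FLASH, 4.16 on CDR and 4.15 on the non-irradiated array, and the dimmest member on those arrays read 6.61, 6.74 and 6.10. Exact ties are common in these values. FLASH and CDR held the identical value for 19 of the 56 members (33.9%) and for 43.2% of genes above the detection level on at least 1 array. All 3 arrays were equal for 3 members (Mcm6, Gins4 and Rfc1) and for 27.2% of those genes. How the ties arose is not given in the sources used here. A tie below is therefore a description of the deposited values and does not show an unchanged transcript level.

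Markers bear on the LT-HSC label. All 12 measured stem cell markers were above the detection level on every array, but so were Cd48, Cd34, Flt3 and Fcgr3, which LT-HSCs express little or not at all, and 11 of 13 granulocyte markers, among them Mpo and Elane. On FLASH, CDR and non-irradiated, stem cell markers ran from Fgd5 (4.35, 4.47, 4.64), near the detection level, to Kit (9.38, 9.78, 10.25). Cd34 (10.81, 10.92, 11.25) and Mpo (12.45, 12.52, 12.36) were brighter than Kit, while Flt3 and Fcgr3 lay within the stem cell markers' range. Il7r, the fifth of the markers low in LT-HSCs, and the granulocyte gene Ltf were under the detection level on every array, and Camp was on CDR. The sorting gate is not given in the sources used here. Together the stem cell markers summed to 2301 and 2266 linear units on FLASH and CDR, against 4243 on the non-irradiated array. Of 20 listed erythroid markers 15 were measured, all above the detection level on every array and 14 of them higher on each irradiated array, and they summed to 5308 and 4937 on FLASH and CDR, against 2875 on the non-irradiated array. The 12 measured dendritic cell and monocyte markers summed to 6315 and 5349, against 4102, with 9 higher and 2 lower on FLASH and, of the 11 detected on CDR or the non-irradiated array, 9 higher and 1 lower on CDR. The 2 lower on FLASH were Csf1r at -0.78 and Ly6c2 at -0.59. Granulocyte markers summed to 19236 and 21203, against 17032, but their directions were mixed. Of the 12 detected, 7 were higher and 5 lower on each irradiated array. On both, 3 were at least 1.5-fold higher (Ms4a3, Lcn2, Cebpe) and 3 at least 1.5-fold lower (Camp, Ngp, S100a9). Lymphoid and megakaryocyte lists summed to less on both irradiated arrays. B and plasma cell markers summed to 4804 and 2589, against 5625. Of those detected, 2 were higher and 5 lower on FLASH, and 1 higher and 7 lower on CDR. T cell markers, of which 3 or 4 of 8 were detected, summed to 234 and 209.6, against 527. Of those detected in each comparison, 2 were higher and 2 lower on FLASH, and 1 higher and 2 lower on CDR. Trbc1 had the largest T cell difference, at -1.86 on FLASH and -2.04 on CDR. Megakaryocyte markers summed to 1183 and 1150.0, against 1722, with 6 of those detected lower on FLASH and 7 on CDR. More cycling cells and more replication transcript per cell cannot be told apart in such pooled RNA, and the part of these marker shifts in the replication gene differences was not tested.

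The replication genes were higher on both irradiated arrays, most of them by little, and over the scalings tried the number higher was 47 to 54 on FLASH and 46 to 55 on CDR, with members near 0 changing side. On FLASH, 49 of the 56 members were higher than on the non-irradiated array, 2 were lower and 5 were tied, against 33.8% of all 13288 detected genes higher and 33% lower. CDR had 51 higher, 2 lower and 3 tied, against 34.7% of 13448 detected genes higher and 30.4% lower. Over detected genes in the members' own range of levels, a background added after seeing the data, 44.4% were higher on FLASH and 46.8% on CDR. The members' median difference was 0.16 on FLASH and 0.17 on CDR, about 1.12-fold in each case, where the median of all detected genes was 0.00. The 2 comparisons share the non-irradiated array, so their likeness is not independent.

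**Figure D1:**
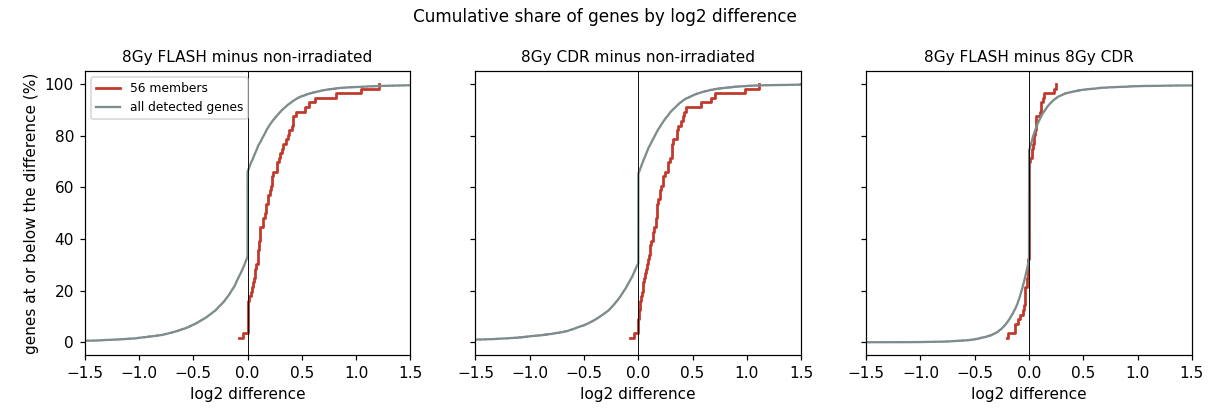
Cumulative percentage of genes (y axis) at or below each log2 difference (x axis, cut at 1.5 either way) for the 56 replication genes (red) and all detected genes (grey), in 3 pairs of arrays with 1 array per group. The red curve lies right of the grey one in both comparisons with the non-irradiated array, with medians of 0.16 and 0.17 against 0.00, and hugs 0 between FLASH and CDR.

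At least 1.5-fold higher were 4 members on each irradiated array, namely Rrm2, Orc1, Orc2 and Mcm10, where 3.59% of detected genes were on FLASH and 3.2% on CDR. That is 7.14% of the members, and 0 members were at least 1.5-fold lower, against 5.3% and 5.38% of detected genes. At 2-fold, Rrm2 and Orc1 remained on FLASH and Rrm2 on CDR, against 1.17% and 0.766% of detected genes. Within 0.1 of the non-irradiated array, in either direction, lay 20 members on FLASH (35.7%) and 19 on CDR (33.9%), against 52.6% and 53.5% of detected genes. Just inside the 1.5-fold threshold of 0.585 stood Mcm10, at 0.62 on FLASH and 0.67 on CDR. Just outside it were Cdc6 at 0.56 on FLASH and Dna2 at 0.579 on CDR.

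**Figure D2:**
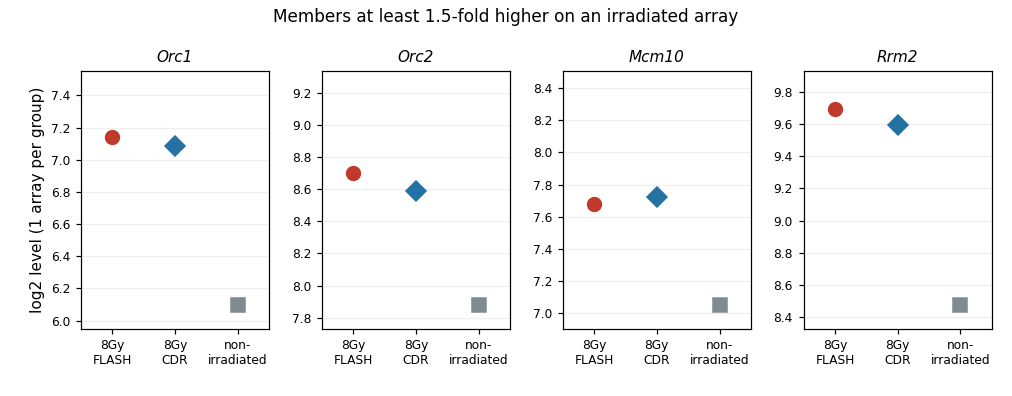
Log2 level (y axis, the same span in each panel) of the 4 members at least 1.5-fold higher on an irradiated array, with 1 point for the 1 array of each group. In every panel the FLASH and CDR points lie close together, at most 0.11 apart, and above the non-irradiated point.

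Rrm2 led the members. It encodes the small subunit of ribonucleotide reductase, made in S phase, which turns ribonucleotides into deoxynucleotides. Its level was 9.69 on FLASH and 9.59 on CDR, against 8.48 on the non-irradiated array. This is a difference of 1.21 (2.32-fold) on FLASH and 1.12 (2.17-fold) on CDR, which placed Rrm2 at rank 107 of 13288 and rank 74 of 13448 detected genes, counted from the highest. Rrm1, the large subunit, read 10.14 on FLASH and 10.15 on CDR, against 9.79 on the non-irradiated array, so its difference of 0.35 and 0.36 was smaller than that of its partner. Rrm2b, the p53-inducible alternative small subunit and not itself a member, ran the other way at 6.42 on FLASH and 6.30 on CDR, against 6.64 on the non-irradiated array (-0.23 and -0.34).

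The other nucleotide supply genes differed less than both reductase subunits. Dut, the dUTPase that keeps uracil out of DNA, was at 0.21 on both irradiated arrays, with 10.01 on each against 9.80. Tk1, the S phase thymidine kinase, read 8.36 on FLASH and 8.40 on CDR, against 8.36 on the non-irradiated array. Tyms, thymidylate synthase, read 9.18 and 9.14 on FLASH and CDR, against 9.13. The genes of thymidine supply, Tk1 and Tyms, were thus within 0.1 of the non-irradiated array, in contrast to both subunits of the reductase. In a search by symbol, Tyms had 1 annotated pseudogene (Tyms-ps) and Pcna had 2 (Pcna-ps1, Pcna-ps2), so the values of these genes are less certain. Copies of any member under other kinds of symbol were not searched for.

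Origin recognition genes were higher mainly through 2 of the 6 subunits. Orc1, the subunit that binds and leaves origins with the cell cycle, read 7.14 on FLASH and 7.08 on CDR, against 6.10 on the non-irradiated array, a difference of 1.04 (2.06-fold) and 0.98 (1.98-fold). Orc2, a core subunit, read 8.70 and 8.59 on FLASH and CDR, against 7.88, or 0.82 and 0.71. Orc6 was at 0.42 on FLASH and 0.31 on CDR, and Orc3 at 0.33 and 0.37. Orc4 and Orc5 held identical values on both irradiated arrays and differed from the non-irradiated one by 0.04 and 0.15. All 6 subunits were therefore higher on both irradiated arrays, with a spread from 0.04 to 1.04 within 1 complex.

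Of the 3 genes that govern MCM loading, Cdc6 showed the widest gap between the irradiated arrays. Cdc6, the ATPase that brings MCM rings to ORC, read 8.29 on FLASH and 8.05 on CDR, against 7.73 on the non-irradiated array (0.56 and 0.32). Its partner Cdt1 read 9.09 and 9.10, against 8.93 (0.16 and 0.17). Gmnn, whose product geminin blocks CDT1 after origins have fired, was at 0.29 and 0.31. The loader and its inhibitor were thus both higher.

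The 6 MCM helicase subunits, which assemble into 1 ring, differed little from the non-irradiated array. Mcm6 held the same value, 10.13, on all 3 arrays. Mcm5 had the largest difference of the ring, with 8.69 on FLASH and 8.64 on CDR, against 8.37 (0.32 and 0.27). Mcm4 was at 0.23 and 0.18, Mcm3 at 0.15 and 0.25, Mcm2 at 0.09 on both, and Mcm7 at 0.05 and 0.13. The median over the ring was 0.12 on FLASH and 0.16 on CDR, below that of the ORC genes at 0.37 and 0.34.

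**Figure D3:**
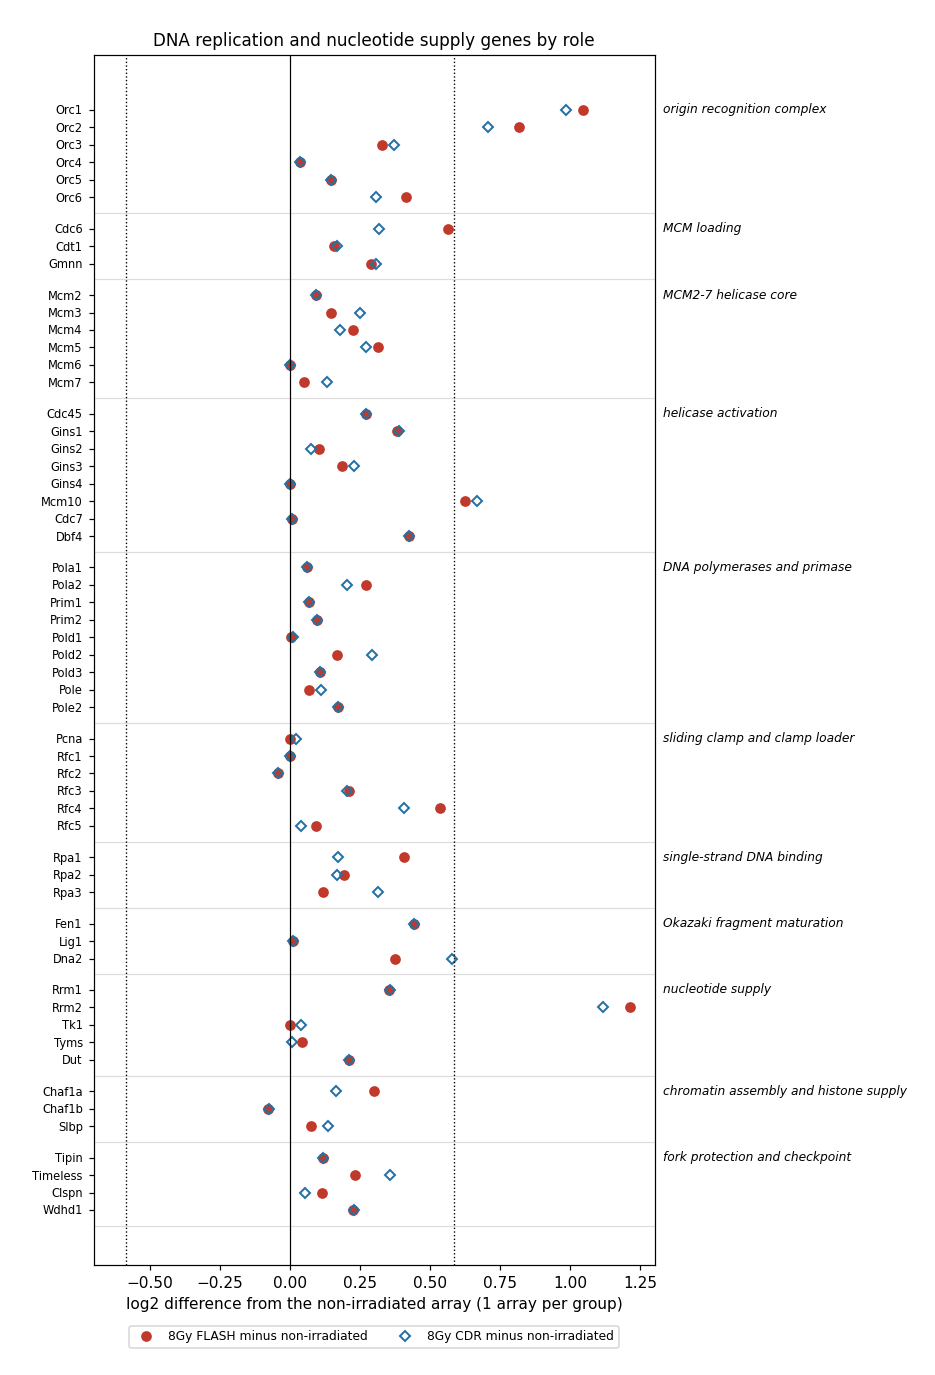
Log2 difference from the non-irradiated array (x axis) for each of the 56 members (y axis, grouped by role), on FLASH (red circles) and CDR (blue diamonds), 1 array per group, with dotted lines at 1.5-fold. Rrm2, Orc1, Orc2 and Mcm10 lie beyond the right line on both arrays, and the lowest member, Chaf1b, lies at -0.08 and -0.07.

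Genes that switch the loaded helicase on varied more. Mcm10, a scaffold needed for the helicase to become active and no part of the ring, read 7.68 on FLASH and 7.72 on CDR, against 7.05 on the non-irradiated array (1.54-fold and 1.59-fold). Dbf4, the activating subunit of the CDC7 kinase, read 8.46 on both, against 8.04 (0.42), while the kinase gene Cdc7 itself was at 0.01 on both. Regulatory subunit and catalytic subunit therefore differed from each other. The GINS genes did too: Gins1 was at 0.38 and 0.39, Gins3 at 0.19 and 0.23, Gins2 at 0.10 and 0.08, and Gins4 held 9.15 on all 3 arrays. Cdc45, which completes the helicase with GINS, was at 0.27 on both irradiated arrays.

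Polymerase genes were higher by small steps. All 9 were above their non-irradiated value on both irradiated arrays, none of them at least 1.5-fold, with a median of 0.10 on FLASH and 0.11 on CDR. The catalytic subunits of the 3 replicative polymerases stood at 0.06 on both arrays for Pola1, at 0.00 and 0.01 for Pold1, and at 0.07 and 0.11 for Pole. Of the accessory subunits, Pola2 was at 0.27 and 0.20, Pold2 at 0.17 and 0.29, Pole2 at 0.17 on both and Pold3 at 0.11 on both. The primase genes Prim1 and Prim2 were at 0.07 and 0.10 on each array. Pold1 turned lower under quantile normalisation and cyclic loess on both irradiated arrays, so a sign this close to 0 is not settled.

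The clamp and its loader held 3 of the members tied or lower on FLASH. Pcna, the clamp that holds polymerases on DNA, read 11.87 on FLASH and 11.89 on CDR, against 11.87 on the non-irradiated array. Rfc1, the large loader subunit, held 8.37 on all 3 arrays, and Rfc2 was at -0.04 on both. Rfc4 had the largest difference of the 5 loader subunits, reading 7.99 on FLASH and 7.86 on CDR, against 7.46 (0.53 and 0.41). Rfc3 was at 0.21 and 0.20 and Rfc5 at 0.09 and 0.04.

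Factors that handle single strands and join fragments were mixed in size. Rpa1, the large subunit of the single-strand binding complex RPA, read 8.86 on FLASH and 8.63 on CDR, against 8.46 on the non-irradiated array. Rpa3, its small subunit, went the other way between the irradiated arrays, with 8.89 on FLASH and 9.09 on CDR, against 8.77. Rpa2 was at 0.19 and 0.17. Fen1, the nuclease that trims the flap of each Okazaki fragment, read 7.27 on both irradiated arrays, against 6.83 (1.36-fold). Dna2, which cuts long flaps, read 7.02 on FLASH and 7.22 on CDR, against 6.64 (0.37 and 0.58). Lig1, the ligase that seals the fragments, was at 0.01 on both, so the nuclease genes differed by far more than the ligase gene.

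Chromatin assembly held the lowest member. Chaf1b, the middle subunit of the histone chaperone CAF-1, read 7.90 on both FLASH and CDR, against 7.97 on the non-irradiated array (-0.08 and -0.07), while the large subunit Chaf1a was at 0.30 and 0.16. Slbp, which binds the stem-loop of replication-dependent histone mRNAs, was at 0.08 and 0.14. The fork protection genes were all slightly higher: Timeless at 0.23 and 0.36, its partner Tipin at 0.12 on both, the checkpoint mediator Clspn at 0.12 and 0.06, and Wdhd1, which ties the polymerase to the helicase, at 0.23 on both.

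The promoters of these genes were searched for shared letters. RefSeq windows on GRCm38.p6, from 250 bases before to 50 after a start site, were given for 47 of the 56 members. The E2F letters TTTCCCGC, TTTGGCGC, TTTGCCGC or TTTCGCGC, on either strand and with overlaps counted, were in the windows of 16 members (34%). They were in 2.6% of all 27025 genes with a window, and in 4.51% of the 10521 of these that were above the detection level on at least 1 array. Median GC content was 62.1% for members and 60.3% for those detected genes. The CCAAT box letters, on either strand, were in 55.3% of members and 42.4% of detected genes, and the CHR letters TTTGAA of late cell cycle genes in 14.9% and 14.2%. A match describes letters only and shows no binding. Only exact letters were counted, so a window without a match may still hold a near match.

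The letters did not follow the size of the difference. The 16 members with E2F letters had a median of 0.15 on FLASH and 0.17 on CDR, and the 31 without had 0.21 and 0.20. Of the 4 members past 1.5-fold, Orc1 alone had them. The following stretches show this contrast, each the 160 bases just before the start site, with E2F and CCAAT box letters in capitals. Orc1 (chr4:108579294-108579453, plus strand) has E2F letters starting 27 bases before the start site and lay at 1.04 on FLASH and 0.98 on CDR. Mcm10 (chr2:5012792-5012951, minus strand) and Rrm2 (chr12:24708094-24708253, plus strand) have CCAAT letters only, counting exact matches. Mcm6 (chr1:128359706-128359865, minus strand) has 3 E2F matches, 2 of which overlap, and was equal on all 3 arrays. Mcm5 (chr8:75109349-75109508, plus strand) has 2 overlapping E2F matches and led the MCM ring.
Orc1: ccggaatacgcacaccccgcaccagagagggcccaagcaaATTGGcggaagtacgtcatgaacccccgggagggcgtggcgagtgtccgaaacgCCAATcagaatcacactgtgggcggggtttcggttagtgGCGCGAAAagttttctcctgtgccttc
Mcm10: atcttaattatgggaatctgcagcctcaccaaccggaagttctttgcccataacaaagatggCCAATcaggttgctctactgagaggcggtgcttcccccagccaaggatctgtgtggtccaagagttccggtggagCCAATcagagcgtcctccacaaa
Rrm2: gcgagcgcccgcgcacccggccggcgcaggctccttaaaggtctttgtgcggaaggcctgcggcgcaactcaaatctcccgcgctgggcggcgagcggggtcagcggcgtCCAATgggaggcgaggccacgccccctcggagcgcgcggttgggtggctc
Mcm6: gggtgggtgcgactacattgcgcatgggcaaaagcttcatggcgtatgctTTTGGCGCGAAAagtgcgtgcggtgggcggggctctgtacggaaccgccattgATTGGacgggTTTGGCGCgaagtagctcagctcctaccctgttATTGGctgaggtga
Mcm5: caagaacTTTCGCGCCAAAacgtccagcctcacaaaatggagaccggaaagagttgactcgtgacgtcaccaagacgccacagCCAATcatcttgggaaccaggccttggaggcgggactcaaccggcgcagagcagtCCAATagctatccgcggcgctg

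**Figure D4:**
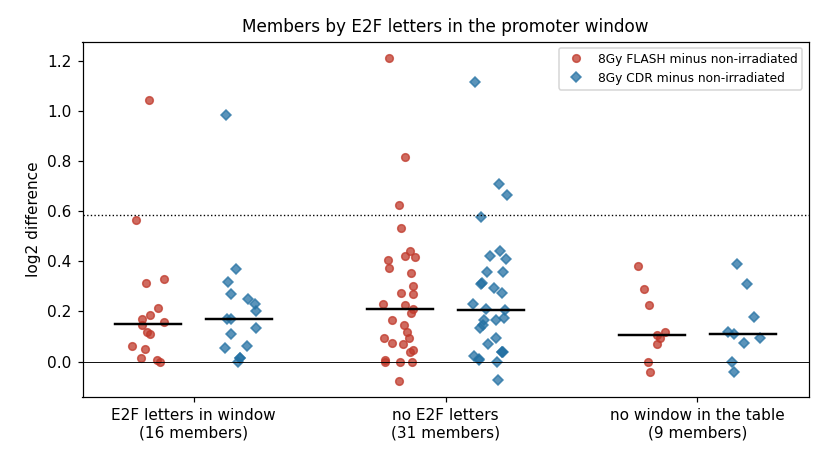
Log2 difference from the non-irradiated array (y axis) of members with E2F letters in the promoter window, without them, and with no window in the table, on FLASH (red) and CDR (blue), 1 array per group. Points are members, black bars medians and the dotted line 1.5-fold; the medians of the 16 members with the letters (0.15 and 0.17) lie below those of the 31 without (0.21 and 0.20).

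Genes of the same pathway outside the 56 showed how far the direction extended. Of 43 other replication factors, all detected, 32 were higher and 5 lower on FLASH, with a median of 0.16. CDR had 31 higher and 6 lower, with a median of 0.15. Over all detected genes, 33.8% were higher and 33% lower on FLASH, and 34.7% and 30.4% on CDR. At least 1.5-fold higher were 2 on each array, where 3.59% of all detected genes were on FLASH and 3.2% on CDR. Lower by as much were 0, against 5.3% and 5.38% of detected genes. Recql4, a helicase of origin firing, read 6.10 on FLASH and 6.09 on CDR, against 5.39 on the non-irradiated array. Donson, a firing factor, was at 0.72 and 0.58, and Rfwd3, a ubiquitin ligase acting on RPA at stalled forks, at 0.39 and 0.65. Esco2, the S phase cohesin acetyltransferase, was at 0.55 and 0.38. Pold4, the small subunit of polymerase delta, was the lowest on both arrays at -0.45 and -0.48, and Pole4, a small subunit of polymerase epsilon, was at -0.08 and -0.40.

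Folate enzymes had the largest differences in nucleotide metabolism beyond the members. Of 42 listed genes 39 were measured, and 24 of them were higher on each irradiated array. On FLASH 10 were lower and on CDR 9, with a median of 0.13 on each. Over all detected genes, 33.8% were higher and 33% lower on FLASH, and 34.7% and 30.4% on CDR. The 2 at least 1.5-fold higher were the same on both, where 3.59% of all detected genes were on FLASH and 3.2% on CDR. Mthfd2, a mitochondrial folate enzyme, read 7.30 on FLASH and 7.44 on CDR, against 6.50 on the non-irradiated array, and Mthfd1, its cytosolic relative, 9.07 and 8.97, against 8.33. Shmt2, which brings serine-derived carbon into the folate pathway, was at 0.41 and 0.57. Dguok, the mitochondrial deoxyguanosine kinase, was lowest at -0.50 on both.

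Regulators of the G1/S step did not move as 1 block. Among 33 E2F, cyclin, CDK and retinoblastoma family genes, 20 were higher and 9 lower on FLASH, with a median of 0.09. CDR had 21 higher and 6 lower, with a median of 0.05. Over all detected genes, 33.8% were higher and 33% lower on FLASH, and 34.7% and 30.4% on CDR. At least 1.5-fold higher were 4 on FLASH and 3 on CDR, against 3.59% and 3.2% of all detected genes. At least 1.5-fold lower were 0 on FLASH and 2 on CDR, against 5.3% and 5.38%. Ccne1, cyclin E1, read 8.08 on FLASH and 7.88 on CDR, against 6.79 on the non-irradiated array, while Ccne2 was at 0.25 and 0.16. Ccna2, cyclin A2, was at 0.69 and 0.53, and Ccnd1, cyclin D1, at 0.76 and 0.71. Mybl2, the B-Myb gene, was at 0.64 and 0.95. The activator genes E2f1 and E2f2 were at 0.09 and 0.00 on FLASH and 0.10 and 0.00 on CDR, whereas the repressor gene E2f8 was at 0.50 and 0.51. Mycn was lower, with 6.53 on FLASH and 5.95 on CDR, against 7.04. Cdkn1b, the p27 cell cycle inhibitor, was also lower, with 8.16 on FLASH and 7.82 on CDR, against 8.51 (-0.35 and -0.69), and Tfdp2, an E2F partner, was at -0.58 and -0.43. The p21 gene Cdkn1a was at -0.18 on FLASH and 0.05 on CDR.

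Mitotic genes, a short list of proliferation markers, had larger differences than most replication genes. All 11 that were measured were higher on both irradiated arrays, with medians of 0.49 on FLASH and 0.42 on CDR. Of all detected genes, 33.8% were higher on FLASH and 34.7% on CDR. The mitotic genes at least 1.5-fold higher numbered 5 on FLASH and 4 on CDR, against 3.59% and 3.2% of detected genes. Plk1, a mitotic kinase, read 9.56 and 9.38 on FLASH and CDR, against 8.47 on the non-irradiated array, Bub1 was at 0.92 and 0.82, and Aurka at 0.78 and 0.75. Mki67, the Ki-67 gene, was at 0.36 on both.

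Between the 2 dose rates the replication genes were close to equal. FLASH read higher than CDR for 17 members, lower for 20 and the same for 19, with a median of 0.00, against 25.6% higher and 31.9% lower of 13184 detected genes. No member differed by 1.5-fold in either direction, where 1.85% of detected genes passed that threshold upward on FLASH and 0.781% downward. Within 0.1 of each other were 45 of the 56 members (80.4%), compared with 70.6% of detected genes. With 1 array per group this does not show that the dose rates act alike.

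Single members marked the ends of this narrow range. Higher on FLASH were Cdc6 at 0.25 (1.19-fold), Rpa1 at 0.23, Chaf1a at 0.14, Rfc4 at 0.13, and Orc2 and Orc6 at 0.11 each. Lower on FLASH were Dna2 at -0.20, Rpa3 at -0.20, Timeless and Pold2 at -0.13, Mcm3 at -0.10 and Mcm7 at -0.08. Subunits of 1 complex thus stood at opposite ends, as with Rpa1 and Rpa3. Among the mitotic genes Plk1 was at 0.17, Cdc20 at 0.16 and Kif11 at 0.13. In the other lists, Mcm8 was at 0.37 and Pole4 at 0.31, Mthfd1l was at -0.32 and Gart at -0.18, Rfwd3 was at -0.26, Adssl1 at -0.41, Cdkn1b at 0.35 and Mybl2 at -0.31, and Mycn, at 0.58, had the largest difference of the 4 pathway lists.

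**Figure D5:**
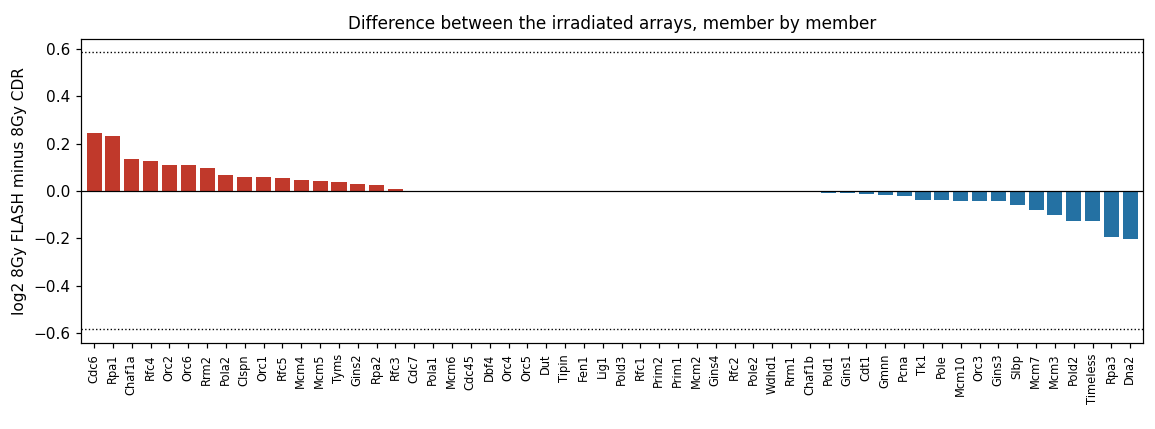
Log2 level on FLASH minus that on CDR (y axis, bars from 0) for each of the 56 members in falling order (x axis), 1 array per group, with dotted lines at 1.5-fold. Bars run from 0.25 for Cdc6 to -0.20 for Dna2, with 19 members at exactly 0 in the middle.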

How the data were processed

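Expression was measured on 3 arrays, 1 per group, grouped by the sample titles. The deposited table holds the authors' log2 level of 25206 probe sets. The log2 scale was read from the range of values, 1.23 to 13.3, and the tool, per the submitters' processing notes, was Partek (no version). The authors' normalisation, and any background correction or summarisation, is not given in the sources used here. In the platform annotation 23185 probe sets had 1 gene each, 0 had several, and 2021 had no entry. All 56 members were found, and each matched RefSeq by Entrez identifier and symbol.

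Values were used as deposited. A gene counted as detected in a comparison when the brighter array read above its 95th percentile of the presumed silent receptor genes. Counts used 1.5-fold, and the same counts over all detected genes are the background. No test was run, since 1 array per group has no spread, and the number of arrays limits precision. Members, lists and thresholds were chosen with earlier results of these data known. Values are written out for the 6 highest and 6 lowest members of each comparison and every member past 1.5-fold, and for the 3 largest differences of each other list. Other genes named were chosen after their values were seen. Alternatives were median centring over named genes, quantile normalisation and cyclic loess (R 4.3.3, limma 3.58.1), adding 32 before taking the log, leaving out the filter, a filter at the 99th percentile, dim values raised to the detection level, thresholds of 0.32 on the log2 scale and of 2-fold, and the mean. The counting step was tested on simulated data. Calculations used Python 3.11.15, numpy 2.4.6 and pandas 2.3.3, and plots matplotlib 3.10.9.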

Additional observations from a re-analysis of the deposited data

Results flagged for a closer look

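Of the members and those genes of the other pathway lists picked by the naming rule (not every gene of those lists, nor the markers), 2 read on opposite sides of the non-irradiated array in the irradiated groups, and the difference was not tested. Adssl1, an adenylosuccinate synthase, was at -0.16 on FLASH and 0.26 on CDR, a FLASH minus CDR difference of -0.41. Cdkn1a was at -0.18 on FLASH and 0.05 on CDR, a difference of -0.23. Among the 56 members 0 did so, where 5.11% of genes above the detection level on at least 1 array did.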

How the results depend on the processing

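The number of members at least 1.5-fold higher depends on the threshold. At 2-fold it was 2 on FLASH (Rrm2 and Orc1) and 1 on CDR (Rrm2), and at a log2 threshold of 0.32 it was 14 on FLASH and 12 on CDR, against 4 at 1.5-fold. Rrm2, Orc1 and Orc2 stayed past 1.5-fold under centring, quantile normalisation, cyclic loess and the offset. Mcm10 did except under the offset, Cdc6 passed on FLASH under centring, and Dna2 passed on CDR under centring and quantile normalisation. Members higher than non-irradiated numbered 47 to 54 on FLASH and 46 to 55 on CDR over these settings. Those that turned from higher to lower had deposited differences of at most 0.02: Cdc7, Pold1, Pcna, Lig1 and Tyms. Rfc2 turned from lower to higher on CDR under centring. Between FLASH and CDR the members higher on FLASH were 17 as deposited, 14 after centring (with 42 lower), 31 after quantile normalisation and 39 after cyclic loess. No member shifted by more than 0.0059 under cyclic loess there, where all 19 tied members and 3 lower ones came to read higher. The median stayed between -0.03 and 0.01 over the scalings. Neither filter nor raised dim values changed a count, as every member was bright. No paired analysis was possible because each group had 1 array.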
